A study of Mus musculus with 6 samples.

Results

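Polycomb proteins and the maintenance machinery of DNA methylation were followed in cultured mouse hair follicle cells through 9 genes, Ezh1, Ezh2, Eed, Suz12, Jarid2, Cbx8, Bmi1, Dnmt1 and Uhrf1. Their members on the array were all 25 probe sets annotated to exactly 1 of these symbols, out of 45037 probe sets that were not controls, and the 9 genes stood among 18193 measured genes. A probe set is a group of short oligonucleotides that together read the transcripts of a gene. Epithelial cells of the vibrissa (whisker) follicle bulge, the niche that holds hair follicle stem cells, came from C57BL/6N mice of 7 to 8 weeks. The cells of each isolation were divided between 2 media and kept for 6 days in 1% atelocollagen gel, and the experiment was carried out 3 times, which gave 3 arrays for each medium. NFFS medium held Noggin, an inhibitor of BMP signalling, with FGF-7, FGF-10 and SAG, an agonist of hedgehog signalling, and NFFSE medium held the same factors plus epidermal growth factor (EGF) at 50 ng/ml, so EGF is the factor that separates the groups and every array comes from cells that had the other four. The labels call the arrays of a medium biological replicates, and whether each isolation pooled several animals is not given in the sources used here.

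Polycomb proteins work in 2 main complexes that keep genes silent. Polycomb repressive complex 2 (PRC2) methylates lysine 27 of histone H3 through its catalytic subunit EZH2 or EZH1, which needs EED and SUZ12, and Polycomb repressive complex 1 (PRC1) ubiquitinates histone H2A and in some forms binds the methylated histone through a CBX protein. DNMT1 copies DNA methylation onto newly made DNA strands, and UHRF1 brings it to half-methylated sites. In skin, EZH1 and EZH2 act together in follicle and epidermal progenitors, and DNMT1 and UHRF1 are needed to keep epidermal progenitors in their undifferentiated state.

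Values are the authors' array signals on a linear scale, given as mean ± SD over the 3 arrays of a medium, and differences are NFFSE minus NFFS on the log2 scale with their SE. Where a gene had several probe sets, the brightest on average stood for it. Names that end in _s_at or _x_at mark probe sets whose oligonucleotides can also match other transcripts. Among the genes called below, Jarid2, Cbx6, Dnmt3l, Gins2, Ccne1 and Krt14 were read from such probe sets. A gene was called higher or lower when its adjusted p in a limma fit was under 0.05. All arrays had been scaled to a trimmed mean of 500, but the median signal lay between 56.4 and 64.8 in NFFSE and between 66.3 and 70.5 in NFFS. Centring each array on its median therefore moved the median difference of all genes from −0.01 to 0.19, and the share of calls that were higher in NFFSE from 41.9% to 62.0%, so calls that were lost after centring are named as such. The Gapdh 3′ probe set minus its 5′ probe set, a measure of RNA quality, averaged −0.37 ± 0.011 in NFFSE and −0.62 ± 0.017 in NFFS on the log2 scale (two-sided exact permutation p = 0.1, which 3 against 3 arrays cannot go below). The same measure for Actb went the other way, with 0.27 ± 0.019 in NFFSE and 0.33 ± 0.059 in NFFS (exact permutation p = 0.3). The part of RNA quality in the differences was not tested. The bulge and keratinocyte markers were strong on every array, with summed signals of 6 genes from 96199 to 115320 in NFFSE and from 90522 to 103890 in NFFS, but they moved in opposite directions between the media. Cd34 (1.98), Itga6 (1.28) and Krt14 (0.82) were higher in NFFSE on the log2 scale, Krt15 was lower (−1.98), and Krt5 and Trp63 were not called, and the part of this in the differences of the regulators was not tested. Summed signals of fibroblast, melanocyte, leukocyte and endothelial markers stayed between 171 and 332 on every array. Single markers differed, and Mlana and Cd3e were at or under the background signal of 22.7 on all 6. Pmel (98.9 to 144), of the same list as Mlana, and Cd74 (67.9 to 125) and Laptm5 (69.4 to 157), of the same list as Cd3e, were over it on all 6. Absence of these cell types is therefore not shown. With bulk RNA, fewer cells of a type and less RNA per cell cannot be told apart.

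Sequence is shown for the members whose promoters hold the letters of an E2F site, because E2F factors drive genes of DNA replication and Ezh2, Dnmt1 and Uhrf1 are set beside those genes further on. The letters TTTGGCGC, TTTCGCGC and TTTCCCGC were searched on both strands in RefSeq promoter windows of 300 bases (250 before the start and 50 after it, GRCm38.p6), where matches on opposite strands may overlap. All 9 members were found, and 4 had a match. Of 27025 genes with a window, 573 had a match, which is 2.12%. The lines run 5′ to 3′ on the strand of the gene, and capitals mark the match. The Ezh2 stretch lies at chr6:47595009-47595038 on the minus strand, with its match starting 3 bases after the transcription start. The Suz12 stretch lies at chr11:79992876-79992905 on the plus strand, 219 bases before the start. Dnmt1 has a first stretch at chr9:20952824-20952853, 219 bases before the start and read on the opposite strand of the gene, and a second at chr9:20952574-20952601, 33 bases after it, both in 1 of its 3 windows on the minus strand. The Uhrf1 stretch lies at chr17:56304117-56304146 on the plus strand, 185 bases before the start, in 1 of 2 windows.
Ezh2: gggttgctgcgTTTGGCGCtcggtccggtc
Suz12: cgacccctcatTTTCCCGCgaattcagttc
Dnmt1, first: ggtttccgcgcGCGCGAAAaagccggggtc
Dnmt1, second: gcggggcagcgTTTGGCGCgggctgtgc
Uhrf1: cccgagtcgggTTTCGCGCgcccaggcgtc
These letters were not in the windows of Ezh1, Eed, Jarid2, Cbx8 and Bmi1. A match describes the letters only.

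The 9 regulators did not move as a block. Eed and Jarid2 were higher in NFFSE, Ezh1, Ezh2, Bmi1 and Uhrf1 were lower, and Suz12, Cbx8 and Dnmt1 did not pass the threshold. This fit did not pair the arrays of the same repeat, and with the repeat as a replicate block Dnmt1 was called lower too (limma, adjusted p = 0.034). The 2 members called higher stand beside a background of 11.0% of all genes called higher, and the 4 called lower beside 15.2% called lower. The arrays of the media did not overlap for 7 of the 9 members, against 40.5% of all genes. The median difference of the members was −0.33, with a range from −1.0 to 0.60, and that of all genes was −0.01. Over probe sets, in a separate fit, 4 of 25 were called higher against a background of 7.69% and 4 were called lower against 12.7%.

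**Figure D1:**
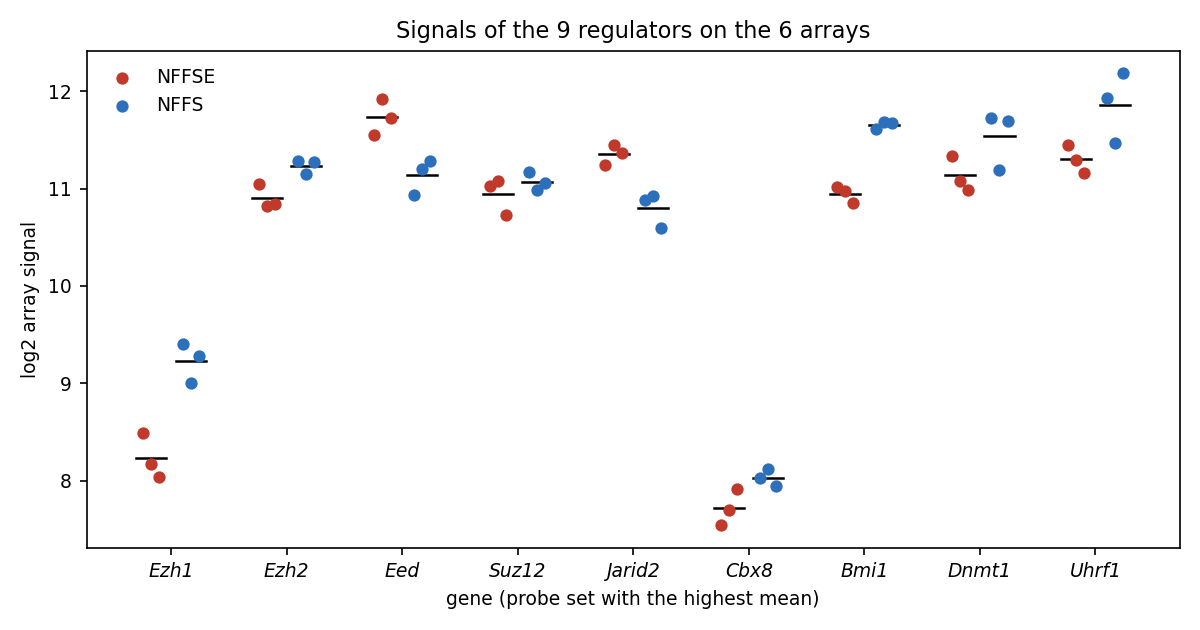
Signal of each regulator on every array (vertical axis, log scale, authors' signal units), read from its brightest probe set, with 1 point per array and a bar at the mean of the 3 arrays of a medium. Eed and Jarid2 sit higher in NFFSE, Ezh1 and Bmi1 sit clearly lower, and the arrays of Suz12 and Dnmt1 overlap between the media.

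Within PRC2, transcripts of the catalytic subunits were called lower in NFFSE and those of Eed and Jarid2 higher. Each of these calls was lost in at least 1 of the alternatives given below. Ezh1 encodes the catalytic subunit that is typical of cells that divide little. Its signals were 360.1, 287 and 262 in NFFSE and 679, 514 and 622 in NFFS. The highest NFFSE array was thus well under the lowest NFFS array. The means were 303 ± 51.1 and 605 ± 83.8 (n = 3 each), a 2.0-fold decrease with a log2 difference of −1.0 ± 0.17 (SE, limma, adjusted p = 0.0018), the largest difference among the 9. The separate repeats gave −0.91, −0.84 and −1.25. A second probe set, 1418290_a_at, did not overlap between media but differed by −0.44 (adjusted p = 0.096). The remaining Ezh1 probe sets, 1429629_at and 1429630_at, had signals of at most 47.5 and lay at or under background on some arrays, with differences of −0.78 (adjusted p = 0.42) and 0.13 (adjusted p = 0.96). Averaging all 4 probe sets gave −0.52 with an adjusted p of 0.37, and this was the only alternative in which the Ezh1 call was lost.

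Ezh2 encodes the main catalytic subunit of dividing progenitors. Its single probe set read 2112.5, 1814 and 1840.3 in NFFSE and 2490.4, 2269.7 and 2473 in NFFS. All NFFSE arrays were lower than all NFFS arrays, but by a small margin. The means were 1922 ± 165 and 2411 ± 123, a 1.26-fold decrease with a log2 difference of −0.33 ± 0.11 (limma, adjusted p = 0.043). The adjusted p was 0.056 in the fit over probe sets and 0.56 after centring, where the difference was −0.13, and the call was lost without NFFSE replicate 2 (0.16), NFFSE replicate 3 (0.13), NFFS replicate 1 (0.10) or NFFS replicate 3 (0.12).

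The arrays were also compared for unequal change of the alternative catalytic subunits. The log2 signal of Ezh2 minus that of Ezh1 was 2.55, 2.66 and 2.81 in NFFSE and 1.88, 2.14 and 1.99 in NFFS. Each NFFSE array was higher than each NFFS array, with means of 2.68 ± 0.13 and 2.0 ± 0.13 and a difference of 0.67 (two-sided exact permutation p = 0.1, again the lowest possible). The comparison is of the size of change by these probe sets and not of the abundance of the subunits. With the mean of all probe sets of each gene the difference was 0.19 (exact permutation p = 0.7).

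Eed encodes the subunit that binds methylated lysine 27 and stimulates the enzyme. Its signals were 3008, 3878 and 3396 in NFFSE and 1956, 2359 and 2486 in NFFS. The media did not overlap, and the means of 3427 ± 436 and 2267 ± 277 differed by 0.60 ± 0.13 on the log2 scale (1.51-fold, limma, adjusted p = 0.0069). The repeats gave 0.62, 0.72 and 0.45, and centring gave 0.80. Another Eed probe set, 1453830_at, had signals between 11.2 and 36.0, near background, with a difference of −0.63 (adjusted p = 0.51). The mean of both was −0.02, so that the rise in Eed rests on the brighter probe set, and it missed the threshold without the intensity trend (adjusted p = 0.066) and in the methods' t-test (0.075).

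Jarid2 encodes an accessory protein that brings PRC2 to its target genes. All 3 of its probe sets were called higher, with differences of 0.55, 0.54 and 0.83. The brightest, 1422698_s_at, read 2416, 2798 and 2645 in NFFSE and 1885, 1951 and 1553 in NFFS. The dimmest, 1450710_at, read 646, 934 and 846 against 519.5, 446 and 389. Neither overlapped between the media. In the gene fit the means of 2620 ± 192 and 1796 ± 213 differed by 0.55 ± 0.12 (1.46-fold, limma, adjusted p = 0.0065), and by 0.75 after centring. The call was lost without the intensity trend (adjusted p = 0.060) and in the methods' t-test (0.057).

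Suz12 encodes the subunit that holds the complex together. None of its 6 probe sets was called. The brightest read 2081, 2158 and 1693 in NFFSE and 2305, 2028 and 2132 in NFFS, which overlapped. The means were 1977 ± 249 and 2155 ± 139.9, and the difference of −0.13 had a 95% confidence interval from −0.40 to 0.14 (limma, adjusted p = 0.50). The other 5 probe sets gave −0.07, 0.08, −0.12, −0.03 and 0.49, with adjusted p from 0.33 to 0.94.

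**Figure D2:**
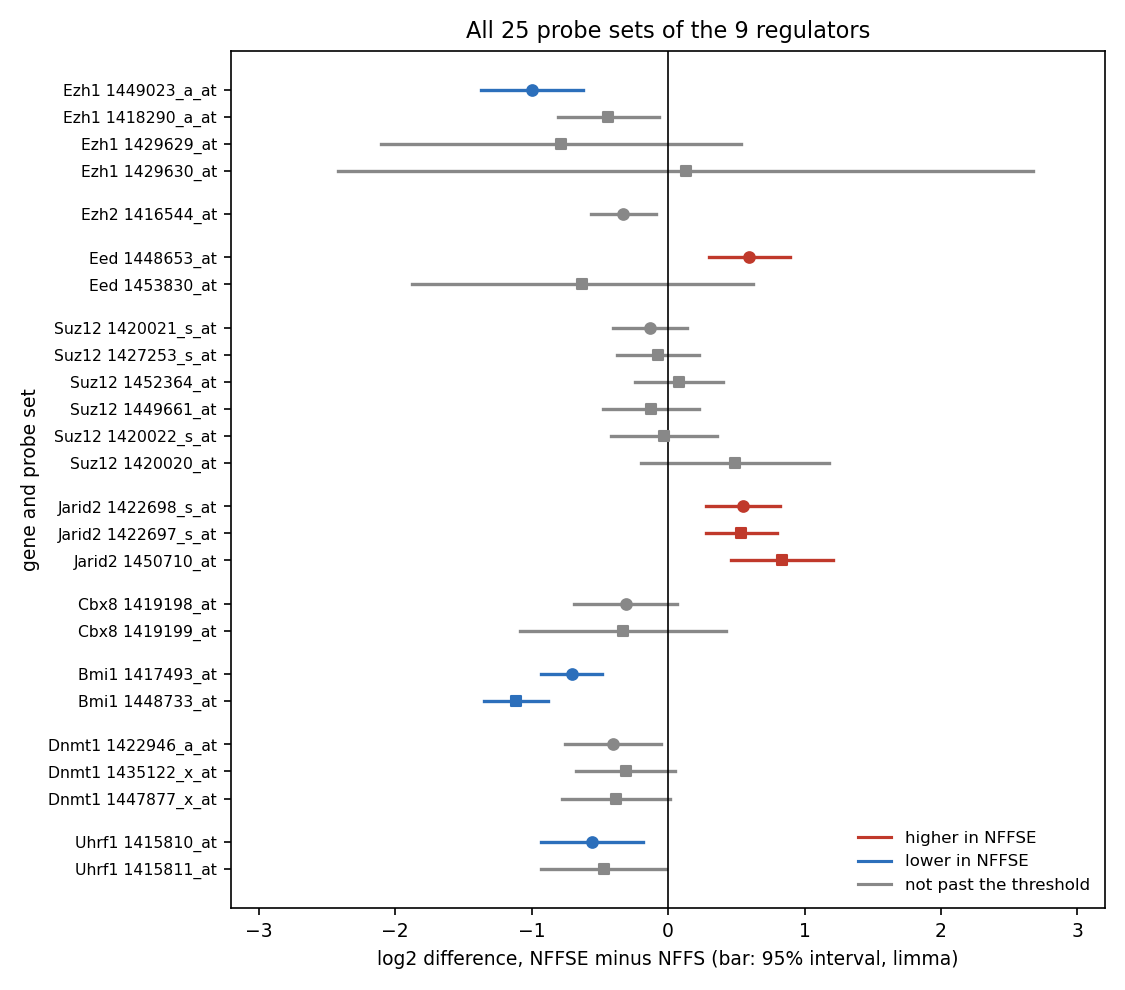
Log2 difference, NFFSE minus NFFS, of each of the 25 probe sets (horizontal axis) by gene, with bars for the 95% confidence interval of the limma fit over all probe sets. Circles mark the probe set that stands for the gene and squares the others; all 3 Jarid2 probe sets lie above 0 and both Bmi1 probe sets below it, while Ezh2 is grey because its adjusted p was 0.056 in this fit.

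Bmi1 was the only called member that kept its call in all 15 alternatives. It encodes a PRC1 subunit that supports the ubiquitin ligase and keeps the Cdkn2a locus silent in many stem cells. Its brightest probe set, 1417493_at, read 2072, 2019.5 and 1850.0 in NFFSE and 3130.3, 3289.7 and 3269.7 in NFFS. The second, 1448733_at, read 1273, 1134 and 1174.5 against 2686, 2389.6 and 2667.5. In both, the media were far apart compared with the spread within each medium. The means of the first were 1980.5 ± 116 and 3229.9 ± 86.8, a 1.63-fold decrease with a difference of −0.71 ± 0.097 (limma, adjusted p = 0.00042). The second fell by 2.16-fold (−1.11 ± 0.11, adjusted p = 5.8e-05 over all probe sets). The repeats gave −0.60, −0.70 and −0.82 for the first, and the alternatives gave differences between −0.91 and −0.51.

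Cbx8 encodes a PRC1 subunit of the CBX family. Its signals were 186, 207 and 241 in NFFSE and 261, 277 and 246 in NFFS. The highest NFFSE array and the lowest NFFS array were almost equal. The means of 211 ± 27.6 and 261 ± 15.7 differed by −0.31, with a 95% confidence interval from −0.72 to 0.09 (limma, adjusted p = 0.26). The second probe set overlapped between media, at −0.33 (adjusted p = 0.58).

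Dnmt1 and Uhrf1, whose promoter stretches are shown above, encode the maintenance methyltransferase and its partner. Dnmt1 signals were 2588, 2171 and 2034 in NFFSE and 3394, 2348 and 3317.5 in NFFS. NFFS replicate 2 was low and fell within the NFFSE range. The means of 2264 ± 289 and 3019.7 ± 583 differed by −0.40, with a 95% confidence interval from −0.75 to −0.06, and the adjusted p of 0.088 did not pass the threshold. The other 2 probe sets gave −0.31 and −0.38 (adjusted p = 0.23 and 0.18). Cells of the same repeat had been divided between the media, and with the repeat as a replicate block Dnmt1 passed the threshold (adjusted p = 0.034). It also passed without NFFS replicate 2 (−0.58, adjusted p = 0.0075).

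Uhrf1 read 2805, 2515 and 2298 in NFFSE and 3895, 2843 and 4658 in NFFS. The media did not overlap, though NFFS replicate 2 lay just over the highest NFFSE array. The means of 2539 ± 254 and 3799 ± 911 gave a 1.47-fold decrease (−0.56 ± 0.17, limma, adjusted p = 0.034). The second probe set, 1415811_at, overlapped between the media, at −0.47 (adjusted p = 0.15). Without NFFS replicate 2 the decrease was −0.75 (adjusted p = 0.0021), and without NFFS replicate 3 it was −0.39 (0.12). The call was also lost after centring (−0.36, adjusted p = 0.22) and without NFFSE replicate 2 (0.0997), NFFSE replicate 3 (0.12) or NFFS replicate 1 (0.095).

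**Figure D3:**
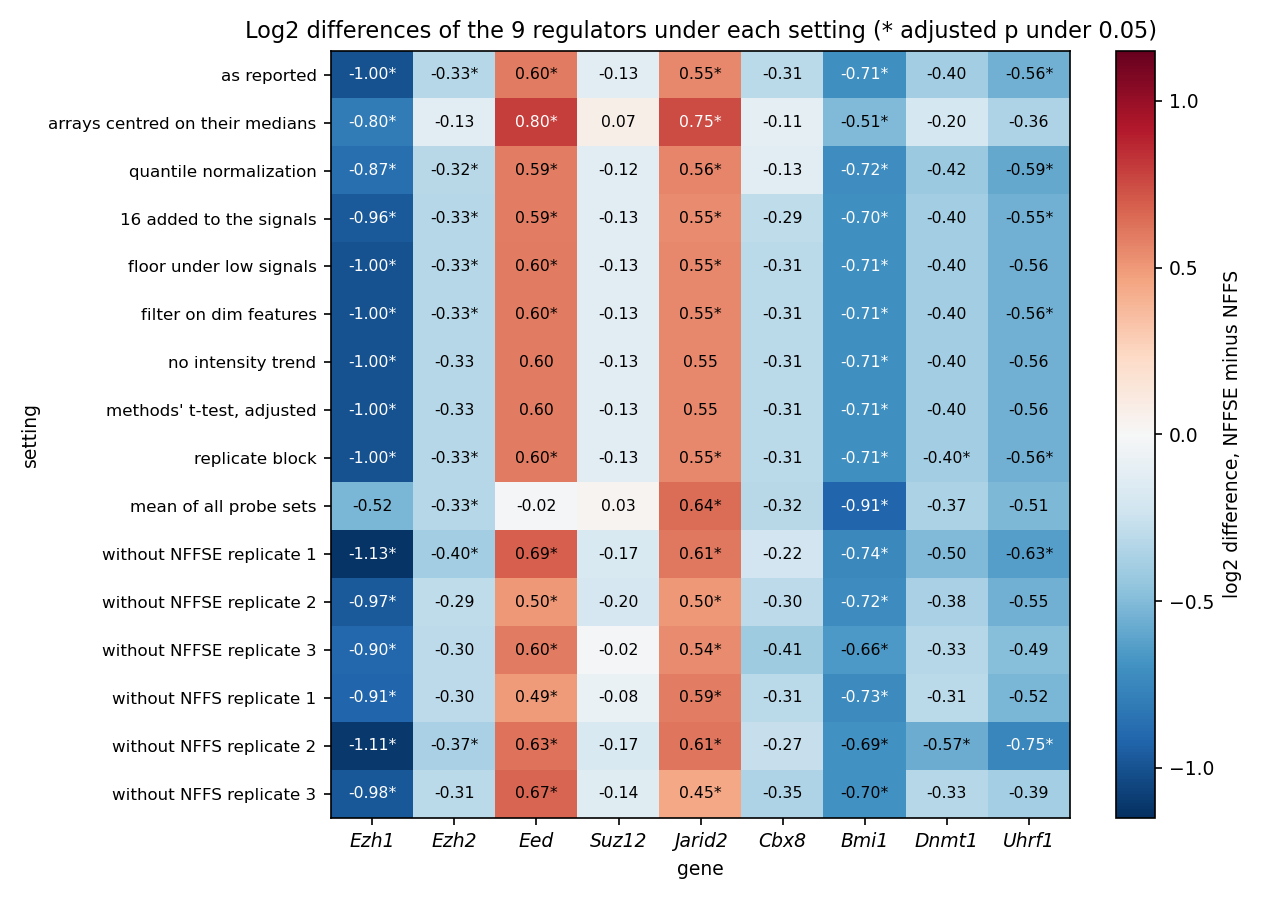
Log2 difference, NFFSE minus NFFS, of each regulator under the main processing and each alternative, with colour for the value and a star where the adjusted p was under 0.05. Bmi1 carries a star in every setting, Cbx8 and Suz12 in none, and Ezh2 and Uhrf1 lose it in 7 and 9 of the 15 alternatives.

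Dnmt1, Uhrf1 and Ezh2 are known to be made mainly in dividing cells, so genes of cell division were set beside them. Counts in these and all later lists stand beside 15.2% of all genes called lower in NFFSE and 11.0% called higher, and no list was tested as a set. Of 19 measured S phase and replication genes, 4 were lower in NFFSE, 1 was higher and 14 were not called, with a median difference of −0.11. Lower were Mcm6, a helicase subunit (−0.53, adjusted p = 0.0071), Prim1, a primase subunit (−0.40, 0.018), Rfc3 of the clamp loader (−0.41, 0.021) and Gins2, a helicase cofactor (−0.52, 0.035). Higher was Ccne1, a cyclin of the entry into S phase (0.73, 0.0043). Not called were Rrm2, Mcm3, Tk1, Mcm7, E2f1, Cdc6, Pola1, Mcm4, Mcm5, Mcm2, Cdt1, Ccne2, Rrm1 and Tyms.

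Of 17 measured mitosis genes, 3 were lower, 0 were higher and 14 were not called, with a median of −0.15. Lower were Kif11, a spindle motor (667 ± 161 against 1207 ± 111, −0.88, adjusted p = 0.0037), Ccna2, a cyclin (−0.52, 0.029), and Nusap1, a spindle protein (−0.48, 0.037). Mki67, a common marker of dividing cells, differed by −0.28 (adjusted p = 0.29), and Ccnb2, Aurkb, Bub1b, Cenpa, Birc5, Cenpe, Bub1, Tpx2, Plk1, Cdk1, Cdc20, Top2a and Aurka were also not called. Without NFFS replicate 2, however, Mki67 was called lower (−0.49, limma, adjusted p = 0.016). Cenpa was called lower with the mean of its probe sets (−0.66, 0.036). After centring, 0 S phase genes were lower and 2, Rrm2 and Ccne1, were higher, and of the mitosis genes only Kif11 was lower. Kif11 missed the threshold in the methods' t-test (adjusted p = 0.071) and with the mean of its probe sets (−0.53, 0.093). Mcm6 missed it without the intensity trend (adjusted p = 0.066), in the methods' t-test (0.061) and with the mean of its probe sets (−0.23, 0.46). Prim1, Rfc3, Gins2, Ccna2 and Nusap1 each lost the call when any of 3 or 4 single arrays was left out, with adjusted p from 0.058 to 0.14. Summed signals of the S phase genes ranged from 54220.0 to 62914 in NFFSE and from 54287 to 68488 in NFFS, and those of the mitosis genes from 35805 to 48495 and from 41096 to 49453, so that both overlapped between the media.

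Array by array, the low NFFS replicate 2 of Dnmt1 and Uhrf1 was also the lowest NFFS array of both cell division lists. As mean log2 deviations from the average of the 6 arrays, the S phase genes stood at 0.05, −0.05 and −0.12 in NFFSE and at 0.003, −0.12 and 0.23 in NFFS. The mitosis genes stood at 0.16, −0.13 and −0.31, and at 0.25, −0.09 and 0.12. Uhrf1 stood at −0.13, −0.29 and −0.42, and at 0.34, −0.11 and 0.60. Dnmt1 followed the same order over the NFFS arrays as the mitosis genes, with 0.39, −0.14 and 0.36. A low NFFS replicate 2 was not particular to cell division genes. It was also the lowest NFFS array of the PRC1 list described below (0.29, −0.03 and 0.17). The same held for the enzymes that remove Polycomb marks (0.28, −0.015 and 0.21), but not for the PRC2 list (−0.09, 0.01 and −0.02). The part of cell division in the differences of Dnmt1, Uhrf1 and Ezh2 was not tested.

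**Figure D4:**
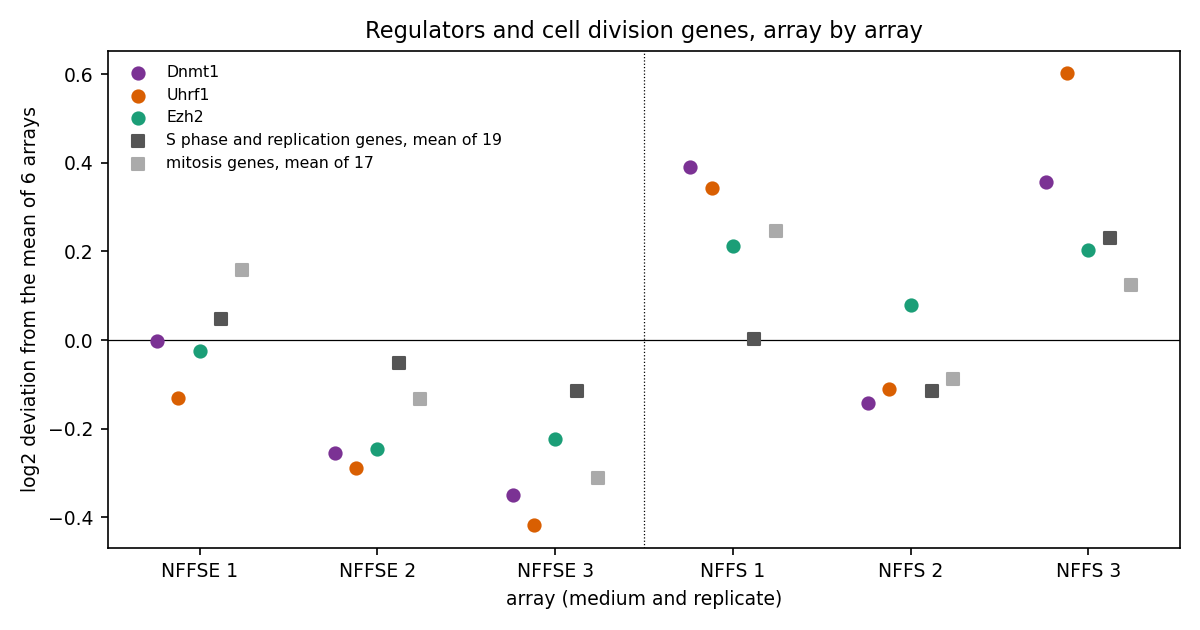
Log2 deviation of Dnmt1, Uhrf1 and Ezh2 (circles) and mean deviation of 19 S phase and 17 mitosis genes (squares) from the mean of the 6 arrays, for each array (horizontal axis, medium and replicate). NFFS replicate 2 is the lowest NFFS array in all 5 series, as it is in the PRC1 list, which is not drawn here.

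Of the PRC2 genes that are no members, Aebp2 was called and 5 were not. Of all 11 genes of PRC2 subunits and accessory proteins, 3 were higher, 2 were lower and 6 were not called, with a median of 0.25. Aebp2, a cofactor found with JARID2, rose from 2217 ± 81.0 to 3399 ± 567 (0.60 ± 0.13, 1.52-fold, limma, adjusted p = 0.0066). Its NFFSE arrays read 3657, 3789.6 and 2749 and its NFFS arrays 2307, 2194 and 2150.3. The mean of all Aebp2 probe sets gave 0.21 (adjusted p = 0.36), and the call was also lost without the intensity trend (0.064) and in the methods' t-test (0.074). Rbbp4, Rbbp7, Mtf2, Phf1 and Phf19 had differences from −0.23 to 0.27 and were not called, although Mtf2 was called higher after centring (0.47, adjusted p = 0.042), and Rbbp4 (−0.48, 0.0014) and Rbbp7 (−0.33, 0.018) were called lower after quantile normalization.

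Among PRC1 subunits and partners, 6 of 23 measured genes were lower in NFFSE, 0 were higher and 17 were not called, with a median of −0.22. Of all genes, 15.2% were lower and 11.0% higher. By the methods' t-test after adjustment 4 passed, and by an unadjusted p under 0.05 in limma 9 did. Cbx6, another CBX protein, had the largest change, with 480.3, 415 and 507 in NFFSE and 2356, 1057 and 1869 in NFFS (−1.84 ± 0.25, 3.58-fold, limma, adjusted p = 0.00038). The NFFS arrays varied widely but all were more than the NFFSE arrays. Cbx6 was also read from an _s_at probe set, which can match other transcripts. Phc3, a polyhomeotic protein, fell from 824 ± 244 to 352 ± 92.2 (−1.22, adjusted p = 0.0049, and 0.097 in the methods' t-test), and Mga and E2f6, partners in a variant PRC1, fell by 0.87 and 0.65 on the log2 scale (adjusted p = 0.0035 and 0.0054). Scmh1, a PRC1 partner, differed by −0.65 (adjusted p = 0.025) with arrays that overlapped, and lost the call without NFFSE replicate 2, NFFSE replicate 3, NFFS replicate 1 or NFFS replicate 3 (−0.60 to −0.54, adjusted p from 0.086 to 0.10). The ligase genes Ring1 and Rnf2 were not called (−0.21 and −0.18), nor were Pcgf1, Pcgf2, Pcgf3, Pcgf5, Pcgf6, Cbx2, Cbx7, Phc1, Phc2, Yaf2, Kdm2b, Bcor, Bcorl1 and L3mbtl2. After centring, Bmi1, Cbx6, Phc3 and Mga were lower and L3mbtl2 was higher (0.82, adjusted p = 0.038), and with the replicate block Kdm2b was also lower (−0.42, 0.014).

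Genes for enzymes that remove Polycomb marks went both ways. Mysm1, a histone H2A deubiquitinase, read 276, 222 and 208 in NFFSE and 615, 625 and 608 in NFFS (−1.40 ± 0.16, 2.63-fold, limma, adjusted p = 0.00012). Kdm6a, a demethylase of lysine 27 of histone H3, fell from 1821 ± 68.8 to 1179 ± 164 (−0.64, adjusted p = 0.0036), and Bap1, another H2A deubiquitinase, differed by −0.35 (0.038). Kdm6b, the related demethylase, was higher, at 1239.7 ± 83.2 against 852 ± 234 (0.57, 0.037), though repeat 1 gave a difference of 0.05. Bap1 and Kdm6b each lost the call in 5 of the 6 fits that left out an array, all but NFFS replicate 1, with adjusted p from 0.064 to 0.14, and Bap1 also after centring (−0.15, 0.49). Usp16, an H2A deubiquitinase (0.38, adjusted p = 0.054), and Asxl1, a partner of BAP1 (−0.76, 0.060), did not pass the threshold, nor did Asxl2, and the median of all 7 was −0.35. With the replicate block both Usp16 (adjusted p = 0.035) and Asxl1 (0.011) passed, and Usp16 also after centring (0.58, 0.016).

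**Figure D5:**
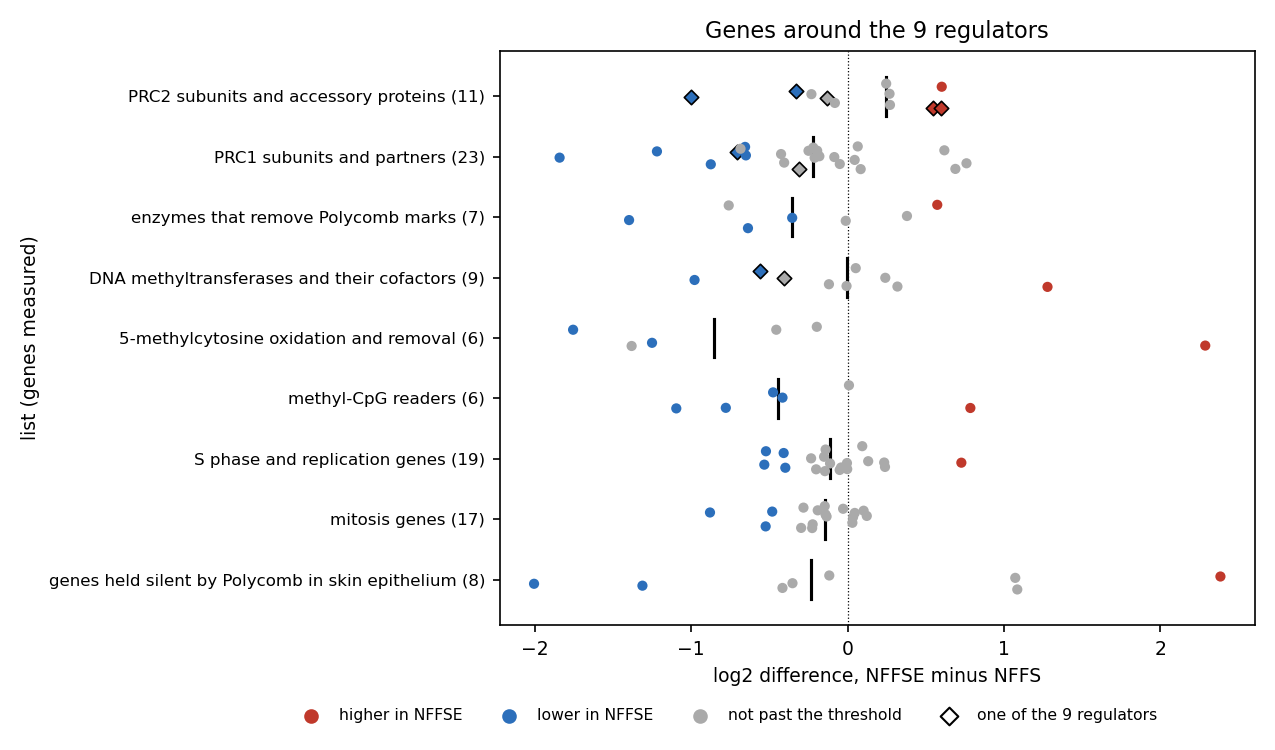
Log2 difference, NFFSE minus NFFS, of every measured gene in 9 lists around the regulators (rows, number of genes measured in brackets), with red and blue for genes called higher or lower in NFFSE, grey for the rest, diamonds for the 9 regulators and a bar at the median. PRC1 genes include 6 lower and 0 higher calls, while the PRC2 list splits into 3 higher and 2 lower, beside 15.2% of all genes called lower and 11.0% called higher.

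Among the other DNA methyltransferase genes, Dnmt3a was lower in NFFSE and Dnmt3l was higher. Dnmt3a, which methylates DNA de novo, read 868, 700.3 and 932 in NFFSE and 1808, 1258 and 1905 in NFFS (−0.98 ± 0.17, 1.97-fold, limma, adjusted p = 0.0021). Dnmt3l, a cofactor without catalytic activity known from germ cells, rose from 243 ± 62.3 to 577 ± 67.2 (1.28 ± 0.21, 2.43-fold, adjusted p = 0.0012). The media did not overlap for either gene. Dnmt3l was read from an _s_at probe set, which can also match other transcripts, and whether it did so here was not tested. Of the 9 methyltransferases and cofactors, 1 was higher, 2 were lower and 6 were not called, with a median of −0.01. Dnmt3b (0.24, adjusted p = 0.39), the deubiquitinase gene Usp7 (0.32, 0.063), the clamp gene Pcna (0.05, 0.81), Hells (−0.12, and −0.81 with an adjusted p of 0.0026 with the mean of its probe sets) and Uhrf2 (−0.01) were among those not called. After centring Usp7 was called higher (0.52, adjusted p = 0.023).

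Genes tied to removal of DNA methylation included a pair of stress-response genes that moved in opposite directions. Gadd45b read 2257, 2086.5 and 2704 in NFFSE and 579.6, 675 and 279.6 in NFFS (2.29 ± 0.28, 4.88-fold, limma, adjusted p = 0.00019). Gadd45a read 1113, 1119 and 953 against 2456, 2094 and 3106 (−1.25 ± 0.15, 2.38-fold, adjusted p = 0.00017). Both genes are also known for growth arrest and DNA damage signalling. Tet1, an enzyme that oxidizes 5-methylcytosine, had low signals of 19.9, 23.4 and 29.5 against 149, 52.3 and 67.8, with 1 NFFSE array at background. With that array raised to the background signal, the estimated decrease was 3.23-fold. Without a floor the difference was −1.75, with a 95% confidence interval from −2.81 to −0.70 (limma, adjusted p = 0.020). The Tet1 call was lost with low signals raised to the background signal (adjusted p = 0.053), in the methods' t-test (0.092), and without NFFSE replicate 1 (−1.62, adjusted p = 0.056), NFFSE replicate 2 (−1.74, 0.054) or NFFS replicate 1 (−1.31, 0.094). Tet2, Tet3 and Mbd4 were not called, and the median of the 6 measured genes was −0.85. With the mean of its probe sets Tet2 was lower (−0.93, adjusted p = 0.0025), and Tet3 was lower without NFFS replicate 2 (−2.05, 0.022).

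Of 6 measured genes for readers of methylated CpG sites and related proteins, 4 were lower, 1 was higher and 1 was not called, with a median of −0.45. Of all genes, 15.2% were lower and 11.0% higher. Zbtb33, which encodes Kaiso, read 2469, 2447.5 and 2171 in NFFSE and 3814, 4238 and 4094 in NFFS (−0.78 ± 0.10, limma, adjusted p = 0.0003). Mbd2 was higher, at 3556 ± 178 against 2069 ± 236 (0.79 ± 0.11, 1.72-fold, adjusted p = 0.00051). Zbtb38, a zinc finger protein, fell from 552 ± 85.8 to 257 ± 23.4 (−1.09, adjusted p = 0.00078). Mbd3 (−0.42, 0.022) and Mbd1 (−0.48, 0.024) were lower and lost their calls after centring (−0.22 and −0.28) and when any of 3 single arrays was left out (adjusted p from 0.054 to 0.080), Mbd1 fell short at −0.12 (0.81) with the mean of its probe sets, and Zbtb4 was not called.

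Genes listed as targets of these regulators showed no common direction, and whether they are targets in these cells was not tested. Cdkn2a, the locus of the growth inhibitors p16 and p19 that BMI1 is known to silence, read 71.1, 28.8 and 58.1 in NFFSE and 219, 172.5 and 204 in NFFS (−2.0 ± 0.36, 4.01-fold, limma, adjusted p = 0.0022). Bmi1 and Cdkn2a were thus both lower in NFFSE. Krt18, a simple epithelial keratin, was 5.22-fold higher at 1741 ± 338 against 339 ± 107.5 (adjusted p = 4.0e-05), while Krt8, its usual partner, was 2.48-fold lower at 412 ± 6.58 against 1039 ± 215 (adjusted p = 0.00023). Of the 8 genes listed as held silent by Polycomb in skin epithelium, 5 were not called, namely Cdkn2b, Sox2, Isl1, Krt20 and Atoh1. Cdkn2b read 1045 ± 195 in NFFSE and 1340 ± 301 in NFFS (−0.35, limma, adjusted p = 0.22). Krt18, Krt8 and Cdkn2b thus had signals well over background in both media and were not silent here. Cdkn2a was also over the background signal of 22.7 on all 6 arrays, though only narrowly on NFFSE replicate 2 (28.8). The other 4 that were not called were dim, with a mean log2 signal in both media under that of a signal of 66.7. None of 8 germline genes listed as silenced by DNA methylation (Dazl, Ddx4, Sycp3, Mael, Asz1, Slc25a31, Tex101 and Taf7l) was called by limma. Of these 8, 0 had an unadjusted p under 0.05, 0 were called by the methods' t-test, and 7 were dim.

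Of 31 genes named from these lists that are no members, 12 were called in all 15 alternatives, namely Cbx6, Mysm1, Dnmt3l, Gadd45a, Gadd45b, Zbtb33, Zbtb38, Mbd2, Ccne1, Krt18, Krt8 and Cdkn2a, and none of the 31 changed direction. Dnmt3a lost its call only in the methods' t-test (adjusted p = 0.063), Kdm6a (−0.42, 0.18) and Mga (−0.51, 0.30) only with the mean of all probe sets, and E2f6 only after centring (−0.45, 0.077).

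As a description of which transcripts followed each called regulator most closely, the 3 genes with the highest Pearson correlation over the 6 arrays were taken. All genes with a mean log2 signal at or above the 40th percentile were searched. The correlations are thus the highest of a large search, and they share arrays and the difference between the media. For Ezh1 the 3 genes were Elp3, Rhno1 and Rbsn (0.997 to 0.999). For Ezh2 they were Klk1, Depdc1b and Ice1 (0.998 to 0.999), and for Uhrf1 Naa40, Trim28 and Ireb2 (0.989 to 0.992). For Bmi1 they were Ptn, Sema3c and Zbtb33 (0.998 to 0.999), the last of which is the reader gene given above. For Eed they were Cetn1, Mapk13 and Rrs1 (0.992 to 0.993), and for Jarid2 Cklf, Sde2 and Sprr1a (0.995 to 0.997).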

How the data were processed

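Total RNA (100 ng per array) of bulge cells from 2 media was measured on 6 Affymetrix mouse genome arrays, 3 for each medium. The deposited values are the authors' signal intensity values on a linear scale, which the submitters' processing notes credit to MAS5, and its version is not given in the sources read. The authors scaled each array to a mean of 500 after trimming 2% of probe sets at either end. No detection calls or scanner values were used here, so the background signal was taken as the highest TrpnX control signal (22.7).

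Of 45101 probe sets, 64 controls were left out. The rest had 1 gene symbol (34945), several (932) or none (9160). limma 3.58.1 (R 4.3.3), with an intensity trend, was run on log2 signals over all 18193 genes and, separately, over all 45037 probe sets, with Benjamini-Hochberg adjustment and a threshold of 0.05. A gene was dim when the mean log2 signal of both media was under the 40th percentile of genes (66.7 as a signal). This fit had no replicate block. Single differences between genes were tested by exact permutation over the 6 arrays, which also leaves out the pairing of same-numbered arrays. Alternatives were median centring, quantile normalization, 16 added to each signal, a floor at the background signal, a filter on dim features, no trend, the methods' t-test, a replicate block, the mean of all probe sets, and leaving out each array. Named genes are the members, the called genes and others of each list, and the 3 transcripts most alike to each called member. The members and lists were chosen with earlier results of these data known. Same-numbered arrays share an isolation of cells, by the series' design. Their deviations from the mean of each medium were weakly correlated (0.28, 0.13 and 0.15). Between arrays of different numbers the correlations ran from −0.16 to 0.006. P-values measure only the spread between these samples, and the number of arrays limits the precision.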

Additional observations from a re-analysis of the deposited data

How the results depend on the processing

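Of the 9 regulators, 2 were higher and 4 lower in NFFSE. After centring on medians 2 were lower, without the intensity trend 0 were higher and 2 lower, in the methods' t-test 0 and 2, and with the mean of all probe sets 1 and 2. Leaving out single arrays gave 2 to 5 lower, and the replicate block 2 higher and 5 lower, with Dnmt1 the added call. Of the probe sets, 4 were higher, but 0 without the trend and 0 in the methods' t-test, and 4 were lower, but 3 to 9 when single arrays were left out, with 9 without NFFS replicate 2. Over the lists 9 genes were higher and 28 lower, against 14 and 15 after centring, 5 and 15 without the trend, 15 lower in the methods' t-test and 17 to 31 lower with single arrays left out. Over all genes 2002 were higher and 2771 lower, against 2916 and 1784 after centring, 1323 and 1928 without the trend, and 1262 and 1702 in the methods' t-test.

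Values that changed sign were small or came from dim probe sets. Eed was −0.0156 with the mean of both its probe sets. Suz12 was 0.070 after centring and 0.035 with the mean of its probe sets. Its probe set 1420022_s_at was 0.17 after centring, 0.15 after quantile normalization and −0.11 to 0.062 with single arrays left out. In the same way 1427253_s_at was 0.13 after centring and −0.16 to 0.042, 1449661_at was 0.076, 0.0145 after quantile normalization and −0.25 to 0.0136, and 1452364_at was −0.030 to 0.19. Ezh1 1429630_at was −0.0529 with the floor and −0.58 to 1.33. The Ezh2 minus Ezh1 difference was 0.19 when probe sets of a gene were averaged. The cause of these shifts was not tested. Signals near 22.7 carry no order between arrays, and 3 arrays against 3 cannot give an exact p under 0.1.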
